A study of Mus musculus with 4 samples.

Results

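Naive CD8 T cells are the circulating CD8 lymphocytes that have not yet met their antigen. Here they were chosen by their transcripts in single-cell RNA sequencing of mouse blood. A cell counted as a CD8 T cell when it held at least 1 unique molecule (UMI, one captured transcript) of *Cd8a* or *Cd8b1*, none of *Cd4* and at least 1 of *Cd3d*, *Cd3e* or *Cd3g*. It counted as naive when at least 1 of the 4 naive genes *Ccr7*, *Lef1*, *Dapl1* and *Igfbp4* was detected and at most 1 of the 6 effector genes *Lgals1*, *S100a4*, *S100a6*, *Ccl5*, *Cd44* and *Cxcr3*. Of 5276 cells with 200 to 2900 genes detected, 1269 met this rule, and 2106 were CD8 T cells of any state.

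The blood was drawn on day 18 after subcutaneous injection of MC-38 colon carcinoma cells into female C57BL/6 mice that were 6 to 8 weeks old at the start, and every group, the Untreated one included, carried the tumor. The PDL1 group received 150 µg of a blocking PD-L1 antibody on days 10, 13 and 17. By the study's methods, the group labelled OX40 received 150 µg of an agonistic OX40 antibody near the tumor on day 7 together with 25 µg of CpG, a TLR9 ligand, and the PDOX group received both regimens. Each group is 1 blood sample and 1 library of enriched T cells, so treatment, mouse and library cannot be told apart, and values between libraries are given with intervals that cover counting error only.

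Naive CD8 T cells leave the thymus and recirculate between blood and lymph nodes. The chemokine receptor CCR7 brings them into the nodes and the sphingosine phosphate receptor S1PR1 lets them out. They are kept quiescent by factors such as KLF2, FOXO1 and BTG proteins and survive on interleukin-7, while TCF-1 (*Tcf7*) and LEF1 maintain the naive program. Once activated, CD8 T cells switch on T-bet, ID2 and ZEB2, granzymes, NK-type receptors and receptors for inflamed tissue.

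The 4 libraries held 253 (Untreated), 481 (PDL1), 373 (OX40) and 162 (PDOX) naive CD8 cells, with median UMI counts of 1606, 1780, 1742 and 1594 per cell. Throughout, levels are UMIs per 10000 UMIs of the named cells in 1 library, without mitochondrial, hemoglobin and most ribosomal protein genes. Values in a row follow the order Untreated, PDL1, OX40, PDOX. The Untreated library stood apart in its hemoglobin share, 7.99% of the deposited UMIs against 0.344% to 1.70% in the others. Cell barcodes were almost private to a library: 14 occurred in more than 1, and 8 naive CD8 cells carried one of these. The defining genes of other cell types stayed low in the naive CD8 cells. The summed level was 1.98 to 5.73 for 11 B-cell genes, 0.0804 to 0.433 for 11 neutrophil genes, 0.124 to 0.629 for 7 platelet genes, 0.393 to 1.46 for 6 erythroid genes, 0.717 to 1.38 for 11 NK-cell genes and 1.88 to 2.72 for 6 Treg genes, with *Foxp3* UMIs in 3 of 1269 cells. The 14 monocyte genes summed to 18.9 to 24.5, and this list holds *Ly6c2* and *Plac8*, which are not particular to monocytes here: *Ly6c2* was detected in 36.8% of naive and 63.2% of antigen-experienced CD8 cells and *Plac8* in 43.1% and 41.1%.

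*Il7r*, the interleukin-7 receptor, which the rule did not read, was detected in 52.9% of naive CD8 cells, 48.8% of naive-gated CD4 cells, 41.5% of antigen-experienced CD8 cells and 1.52% of B cells, with median UMI counts of 1717, 1574, 2106 and 1242 per cell. This marks T cells and does not by itself separate naive from experienced ones. The rule's own genes are a description only: *Lef1* was found in 76.0%, *Ccr7* in 57.6%, *Dapl1* in 55.6% and *Igfbp4* in 44.7% of the cells. CD8 transcripts were not a perfect gate, since 230 of 1094 T cells with *Cd4* UMIs (21.0%) and 15 of 132 B cells (11.4%) also held a UMI of *Cd8a* or *Cd8b1*.

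Naive cells made up a smaller share of the blood CD8 T cells in the OX40 library than in the Untreated and PDL1 libraries, and the smallest share in PDOX. They were 78.1% (exact 95% interval 73.2 to 82.5) of 324 CD8 T cells in the Untreated library, 73.7% (70.1 to 77.0) of 653 in PDL1, 55.4% (51.6 to 59.2) of 673 in OX40 and 35.5% (31.1 to 40.1) of 456 in PDOX. The intervals of Untreated and PDL1 overlapped, and those of OX40 and PDOX lay below both and apart from each other. Of all T cells, the shares were 36.3%, 36.5%, 25.2% and 12.1%. When every cell was thinned to 750 UMIs, which left out 86 naive CD8 cells that were shallower, the shares of CD8 T cells were 76.6%, 71.5%, 55.3% and 31.2%. A stricter rule with no effector gene and at least 2 naive genes gave 36.7%, 32.2%, 21.4% and 14.5%, in the same order.

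**Figure D1:**
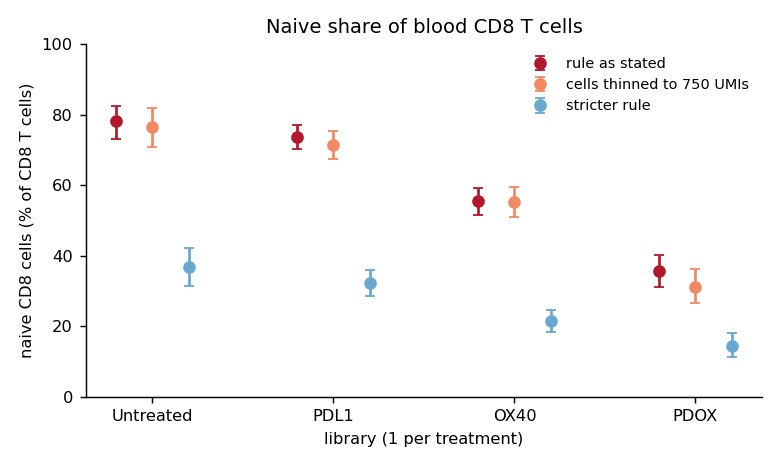
Naive cells as a percentage of the CD8 T cells in each of the 4 libraries, under the rule as stated, after thinning every cell to 750 UMIs and under a stricter rule. Points are shares, bars are exact 95% binomial intervals, and the share is highest in the Untreated library (78.1%) and lowest in PDOX (35.5%) under the rule as stated.

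The members differed in how they met the rule. Of the 1269 cells, 301 held 1 of the 4 naive genes, 404 held 2, 397 held 3 and 167 held all 4. Both CD8 genes were found in 787 cells (62.0%). No effector gene was detected in 719 cells and exactly 1 in 550, and in most of the latter that gene was *Lgals1* (261 cells) or *Ccl5* (225 cells). The chemokine gene *Ccl5* was the single effector gene in 23.7% and 29.2% of such cells in the Untreated and PDL1 libraries and in 58.7% and 50.0% in OX40 and PDOX. The galectin gene *Lgals1* went the other way, at 69.1% and 58.5% against 30.4% and 32.4%. *Ccl5* stood at 0.635 to 1.44 in B cells (31, 57, 7 and 37 cells in the 4 libraries) and at 2.05, 1.58, 8.29 and 10.5 in naive CD8 cells. The 6 effector genes together summed to 1.79, 3.30, 9.34 and 11.85 in B cells and to 4.89, 5.09, 10.6 and 12.7 in naive CD8 cells. The OX40 sum in B cells rests on 13 UMIs. B cells of PDOX also held monocyte genes (sum 126.7) and platelet genes (41.5). The part of free RNA in these values and in the naive shares was not tested.

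Members with *Ccl5* also differed in genes the rule did not read. *Ly6c2*, a surface protein that rises on CD8 T cells with antigen or cytokine experience, was at 11.04 (10.02 to 12.1) in the 225 cells with *Ccl5*, at 7.28 (6.55 to 8.07) in the 261 cells with *Lgals1* and at 6.22 (5.76 to 6.70) in the 719 cells with no effector gene. *Gzmm*, a granzyme, was at 0.457 (0.271 to 0.722) in the cells with *Ccl5* and at 0.0445 (0.0145 to 0.104) in those without an effector gene, and no *Gzmm* UMI was found in the 261 cells with *Lgals1*, whose upper limit was 0.0744. *Ccr9*, the receptor for the gut and thymus chemokine CCL25, ran in the opposite direction, at 0.685 (0.452 to 0.997) against 1.33 (1.12 to 1.56). *Tcf7* was at 5.91, 6.09 and 6.09 in the cells with *Ccl5*, with *Lgals1* and with no effector gene. Libraries enter these sets unevenly, so the values within libraries matter. *Ly6c2* in cells with *Ccl5* was at 9.54, 8.90, 11.9 and 13, against 4.42, 7.19, 5.66 and 7.12 in cells with no effector gene. It was higher in each library, and in PDL1 the intervals overlapped. In cells with *Lgals1* it was at 7.52, 6.225, 6.79 and 13.84, so in PDOX it was not below cells with *Ccl5*. *Ccr9* was at 0.753, 0.287, 0.949 and 0.4998 with *Ccl5* against 1.785, 1.184, 1.521 and 0.606 without an effector gene. It was lower in each library, with intervals apart in PDL1 only. *Tcf7* had no common direction, at 8.53, 7.65, 4.69 and 4.998 against 6.89, 5.985, 5.91 and 5.45. Its intervals overlapped in each library. The 18 *Gzmm* UMIs of the cells with *Ccl5* were 0, 1, 7 and 10 in the 4 libraries, so this value rests on OX40 and PDOX.

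At the edge of the rule, the 175 CD8 T cells with 2 effector genes and at least 1 naive gene, which were left out, had *Ly6c2* at 15.4 and *Nkg7* at 19.1, against 8.91 and 14.9 in the 550 members with 1 effector gene. On the other side, the 109 CD8 T cells with at most 1 effector gene and no naive gene were shallow, with a median of 948 UMIs. Their *Tcf7* (6.61) and *Il7r* (6.27) levels were close to those of members with 1 naive gene (5.68 and 5.75).

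The first comparison asked how naive CD8 cells differ from naive CD4 cells of the same blood. The CD4 side held 484 cells that met the same naive and effector conditions with at least 1 UMI of *Cd4* and none of *Cd8a* and *Cd8b1*. Counts were summed per library and fitted with edgeR's quasi-likelihood test with library as a block, and genes of the rule were not called. The p-values therefore rest on how the CD8 to CD4 difference within a library varied over these 4 libraries, each of a different treatment. Of 3906 genes tested, 382 were called at a Benjamini-Hochberg adjusted p under 0.05 (9.78%), 198 higher in naive CD8 cells (5.07%) and 184 lower (4.71%).

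The naive CD8 cells carried transcripts of the cytotoxic granule. *Nkg7*, a granule membrane protein of killer cells, was at 11.8, 12.5, 12.9 and 17.2 in naive CD8 cells and at 0.0813, 0.626, 0.852 and 0.676 in naive CD4 cells. The groups did not overlap, and the CD4 values were of the size found in B cells (0.256 to 0.956). In the 719 members with no effector gene detected, *Nkg7* was at 11.3 over the 4 libraries. The log2 fold change was 4.49 ± 0.13 (SE, 4 libraries). *Nkg7* was low in CD4 cells and could pass the filter on low counts through the CD8 side, so no p is given. Of an 11-gene CD8 lineage list, 7 genes passed the filter on low counts and were called higher in naive CD8 cells. Some of these, such as *Itgae* with 2 UMIs in the CD4 cells, passed it through the CD8 side, where they are high, so their count is no support for the list as a whole. The 7 were *Nkg7*, the lineage factor *Runx3* (1.78 ± 0.20), the cathepsin *Ctsw* (1.79 ± 0.15), the immunoglobulin family receptor *Cd7* (1.58 ± 0.18), *Klrd1*, which encodes the NK receptor chain CD94 (2.74 ± 0.16), *Cst7*, an inhibitor of lysosomal cathepsins (3.52 ± 0.32), and *Itgae*.

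The granule proteins themselves were another matter. Of 12 cytotoxic genes, 4 passed the filter on low counts, which genes high in CD8 cells alone can pass through that side. These were *Nkg7*, *Ctsw*, *Cst7* and the proteoglycan *Srgn*, the last abundant in both lineages and slightly higher in naive CD8 cells (0.28 ± 0.09), while granzymes, perforin and interferon-gamma were too low to test. *Gzma* was at 0.247, 0.187, 0.289 and 0.354 and *Prf1* at 0.124, 0.117, 0.161 and 0.236 in naive CD8 cells. *Gzmb* was at 0 in the Untreated library, where a count of 0 allows up to 0.0742 at 3 UMIs, and at 0.0702, 0.0322 and 0.157 in the others.

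Surface proteins that address T cells to tissue separated the lineages in both directions. *Ccr9* was at 1.43, 1.11, 1.30 and 0.551 in naive CD8 cells and at 0.0813, 0, 0.180 and 0.0676 in naive CD4 cells (log2 fold change 3.78 ± 0.37). *Itgae*, the CD103 integrin chain that binds E-cadherin on epithelium, had 142 UMIs in naive CD8 and 2 in naive CD4 cells over the 4 libraries, a ratio of 24.9 (counting interval 6.77 to 208). *Cxcr6*, the receptor for CXCL16, was at 0.470, 0.596, 0.434 and 0.393 against 0, 0, 0.0449 and 0.270 (2.88 ± 0.50), but its adjusted p was 0.146 with DESeq2 in place of edgeR. Lower in naive CD8 cells were *S1pr1* (-0.29 ± 0.10) and the integrin chains *Itgb7* (-0.63 ± 0.09), *Itgb2* (-0.58 ± 0.15), *Itgb1* (-0.98 ± 0.27) and *Itga6* (-0.68 ± 0.21). So of 12 tested homing and adhesion genes, 3 were higher and 5 lower (66.7% called, against 9.78% of all genes tested). The 3 higher ones were low in CD4 cells and could pass the filter on low counts through the CD8 side. Their direction is therefore no support for the list.

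**Figure D2:**
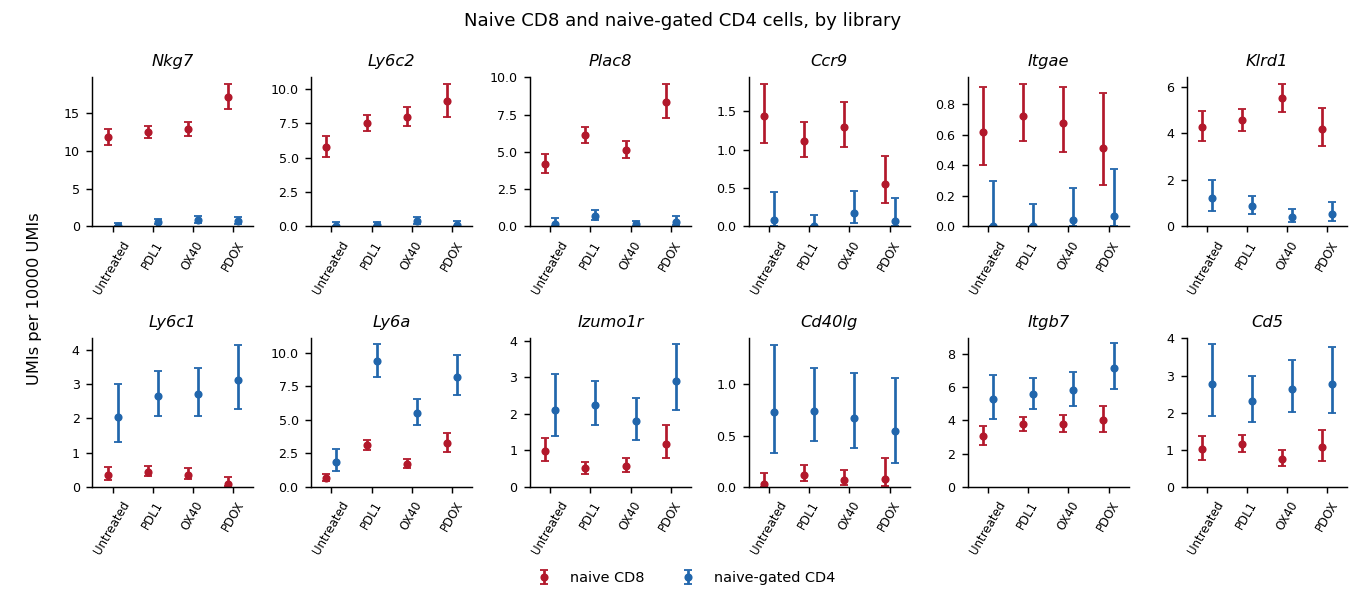
Levels of 12 genes in naive CD8 and naive-gated CD4 cells of each library, in UMIs per 10000 UMIs; each panel has its own axis from 0, and bars are exact 95% Poisson intervals. The top row holds genes higher in naive CD8 cells in all 4 libraries, such as *Nkg7* (11.8 to 17.2 against 0.0813 to 0.852), and the bottom row genes lower in all 4, such as *Ly6c1*.

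The Ly6 proteins, small lipid-anchored surface molecules of lymphocytes, split between the lineages. *Ly6c2* was at 5.78, 7.497, 7.96 and 9.09 in naive CD8 cells and at 0, 0.117, 0.359 and 0.0676 in naive CD4 cells (log2 fold change 5.60 ± 0.20). So low in CD4 cells, *Ly6c2* could pass the filter on low counts through the CD8 side, and no p is given. Its neighbor *Ly6c1* was the reverse, at 0.346, 0.433, 0.354 and 0.0787 against 2.03, 2.66, 2.69 and 3.11 (-2.86 ± 0.19). The 2 genes are near-identical in sequence, so reads that fit both can be miscounted, though each was the abundant one in a different lineage. *Ly6a*, which encodes Sca-1, was lower in naive CD8 cells in each library (-1.51 ± 0.10). *Ly6e* was slightly lower as well (-0.21 ± 0.06), though higher in the Untreated library.

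Receptor signalling genes leaned toward the CD4 side. Of 19 tested genes of this list, 5 were lower in naive CD8 cells and 2 higher, with a median log2 fold change of -0.21. This was 36.8% called, against 9.78% of all genes tested. *Cd5*, a brake on antigen receptor signals, was at 1.01, 1.15, 0.756 and 1.06 in naive CD8 cells against 2.76, 2.31, 2.65 and 2.77 (-1.32 ± 0.15). *Cd28*, the main costimulatory receptor, was at 3.21, 2.44, 1.98 and 2.36 against 4.96, 5.48, 4.94 and 5.95 (-1.08 ± 0.11). The receptor zeta chain *Cd247* (-0.47 ± 0.10), *Cd6* (-0.71 ± 0.13) and *Cd2* (-0.35 ± 0.08) were the other 3 lower ones. Higher were *Themis*, a signalling adaptor (0.76 ± 0.19), and the phosphatase *Ptpn22* (0.88 ± 0.16). Of 7 tested CD4 lineage genes, *Cd40lg*, the helper ligand for B cells (-3.03 ± 0.37), *Cd28* and the folate receptor family gene *Izumo1r* (-1.56 ± 0.17) were lower and none was higher. Genes high in CD4 cells alone can pass the filter on low counts through that side, so this count is no support for the list.

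Genes of the naive program outside the rule were called in 14.3% of cases, against 9.78% of all genes tested, so few calls are no trait of this list. On simulated counts the test recovered 19.6% of changes of 0.5 log2 units. A missing call therefore does not show equal levels. Of 14 tested genes of the program outside the rule, none was higher and 12 were not called, among them *Il7r* (0.23 ± 0.09, edgeR adjusted p = 0.0988), *Tcf7* (-0.22 ± 0.08, edgeR adjusted p = 0.0712) and *Klf2* (0.14 ± 0.05, edgeR adjusted p = 0.0505). The genome organizer *Satb1* (-0.36 ± 0.09) and *S1pr1* were lower in naive CD8 cells. The rule asked the same of both lineages, and its naive genes still differed in level, which is given with no test: *Igfbp4* was at 4.75, 5.49, 5.32 and 7.91 in CD8 and at 11.95, 10.6, 11.3 and 12.97 in CD4 cells, and *Dapl1* at 12.04, 12.2, 14.3 and 10.3 in CD8 and at 7.31, 6.57, 9.38 and 7.16 in CD4 cells.

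Of 10 tested cytokine receptors, 1 was higher and 2 were lower in naive CD8 cells (30% called, against 9.78% of all genes tested). *Il2rb*, the receptor chain for interleukin-2 and interleukin-15, was at 0.494, 0.725, 0.836 and 0.669 in naive CD8 cells against 0.406, 0.117, 0.224 and 0.270 (1.67 ± 0.33). *Il6ra* (-0.53 ± 0.14) and *Il21r* (-0.52 ± 0.16) were lower. Of 6 tested survival genes, 1 was higher and none lower (16.7% called): *Bcl2*, which blocks apoptosis (0.38 ± 0.08), in 3 of 4 libraries. Of 8 genes of GIMAP GTPases, which guard lymphocyte survival, *Gimap5* was higher (0.45 ± 0.14) and 5 were lower (75% called). Immediate early genes respond within minutes to receptor signals, and 36.8% of the 19 tested were called. *Fos* (0.51 ± 0.12), *Dusp2* (0.99 ± 0.14), *Cd69* (0.49 ± 0.13) and *Jund* (0.20 ± 0.06) were higher and *Junb* (-0.23 ± 0.05), *Nfkbia* (-0.30 ± 0.08) and *Nr4a1* (-0.75 ± 0.25) lower.

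Among the largest differences were also genes outside these lists. *Gm43698*, a predicted gene, had 257 UMIs in naive CD8 cells and none in naive CD4 cells of any library, which at a floor of 3 UMIs over the 4 libraries is at least 30.1-fold higher. The lipocalin gene *Lcn4* was at 1.41, 1.87, 1.90 and 1.53 against 2 UMIs in all of the CD4 cells, a ratio of 65.6 (18.04 to 544). *Racgap1*, which acts in cell division, had 121 UMIs against 1, a ratio of 42.5 (7.48 to 1691), and *Adgrg5*, an adhesion-type receptor, 120 against 3, a ratio of 14.0 (4.69 to 69.0). *Plac8* was at 4.18, 6.12, 5.14 and 8.34 against 0.163, 0.704, 0.135 and 0.270 (4.08 ± 0.18), and it was high in B cells too (2.87 to 39.4). The noncoding *5730508B09Rik* was also higher (3.38 ± 0.27).

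Besides those given, the largest decreases were in *Pdlim4*, a cytoskeletal adaptor (-2.69 ± 0.27), the sialyltransferase *St8sia6* (-2.41 ± 0.31), *Nxpe3* (-1.84 ± 0.28), the calcium sensor *Tesc* (-1.80 ± 0.18), the membrane protein *Itm2a* (-1.77 ± 0.23), the presenilin *Psen2* (-1.76 ± 0.31), the tetraspanin *Tspan32* (-1.60 ± 0.11) and the microtubule regulator *Stmn1* (-1.47 ± 0.29), whose adjusted p was 0.0566 with DESeq2. One B-cell gene moved with the CD8 side: *Cd74* was at 2.94, 2.25, 0.868 and 1.14 against 1.63, 0.939, 0.224 and 0.743 (1.16 ± 0.18), and it reached 205 to 335 in B cells. Its part in the other differences was not tested. With DESeq2 the comparison gave 83 calls and without the library block 173.

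The next comparison set the naive CD8 cells beside the 728 antigen-experienced CD8 cells, that is CD8 T cells with at least 2 of the 6 effector genes. The 4 libraries held 48, 150, 264 and 266 of them. The rule itself drew this line and both sides come from the same cells, so the values are a description and no p is given. Of 5743 genes, 899 passed the same threshold (15.7%), 361 higher in naive cells (6.29%) and 538 lower (9.37%).

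Genes of naive recirculation and quiescence were the higher ones. Of 14 measured naive genes outside the rule, 12 were higher in naive cells and none lower, with a median log2 fold change of 0.74 against 0.001 over all genes. This was 85.7% past the threshold, against 15.7% of all genes. *Satb1* was at 5.78, 5.05, 4.68 and 4.84 against 3.77, 2.37, 2.88 and 1.16, so PDOX was the lowest library among experienced cells and not among naive cells. *Tcf7* (0.93 ± 0.12), *Il7r* (0.69 ± 0.11), *Actn1* (1.30 ± 0.15), *Bach2*, a repressor of effector genes (1.06 ± 0.23), and *Foxp1* (0.77 ± 0.12) were higher too. *Cd27* and *Id3* did not differ past the threshold (0.11 ± 0.11 and 0.03 ± 0.27).

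*Ccr9* had the largest fold of the genes higher in naive cells, at 1.43, 1.11, 1.30 and 0.551 against 0.175, 0.348, 0.156 and 0.0520 (2.44 ± 0.26). The others among the 12 largest were *Gm43698* (1.93 ± 0.23), the cyclophilin *Ppic* (1.83 ± 0.29), *Auts2* (1.75 ± 0.35), *5730508B09Rik* (1.70 ± 0.18), *Tdrp* (1.62 ± 0.19), *Ramp1*, a subunit of the receptor for the neuropeptide CGRP (1.60 ± 0.19), the pseudokinase *Trib2* (1.57 ± 0.28), the cyclic AMP phosphodiesterase *Pde4b* (1.56 ± 0.23), *Ssbp2* (1.56 ± 0.19), *Als2cl* (1.55 ± 0.27) and *Rgcc* (1.54 ± 0.15). The interleukin-6 receptor *Il6ra* was higher as well (0.88 ± 0.16). Of 22 immediate early genes, 10 were higher and none lower (45.5% past the threshold, against 15.7% of all genes). Among them were *Junb* (0.84 ± 0.10) and *Nfkbia* (0.79 ± 0.14). *Btg1* (0.66 ± 0.10) and *Klf2* (0.60 ± 0.10) were higher as well.

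Effector genes that the rule did not read were low in the naive cells in every library. *Gzma* was at 0.247, 0.187, 0.289 and 0.354 in naive and at 2.46, 17.2, 16.5 and 26.2 in experienced cells (-5.94 ± 0.21). *Gzmb* was at 0, 0.0702, 0.0322 and 0.157 against 1.58, 3.55, 4.47 and 6.43 (-6.08 ± 0.23). All 9 measured effector transcription factors were lower, such as *Id2* at 2.20, 1.85, 1.87 and 2.83 against 5.70, 8.80, 9.25 and 14.2 (-2.20 ± 0.13), *Zeb2* (-4.00 ± 0.25) and *Tbx21* (-3.58 ± 0.53). The 6 measured NK-type receptors were lower as well, with *Klrk1*, which encodes NKG2D, at -4.63 ± 0.20, *Klrc1*, the inhibitory NKG2A, at -4.90 ± 0.24 and *Klrg1* at -5.13 ± 0.40. The lists hold 13 such factors and 10 such receptors, and the rest did not pass the filter on low counts. Genes low in naive cells can pass that filter through the experienced side, where they are high. The counts of lower genes are therefore no support for the lists.

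Levels in the naive cells were near nothing for some of these. *Klrc2* had 2 UMIs in naive and 185 in experienced cells (a ratio of 116, counting interval 31.7 to 967), the chemokine *Ccl3* 3 and 232 (97.2, 32.9 to 475) and *Ifng* 3 and 139 (58.3, 19.5 to 286). Other genes were shared and only lower: *Nkg7* reached 21.0, 31.8, 43.9 and 51.5 in experienced cells (-1.47 ± 0.12), *Ly6c2* was at 15.3, 18.7, 13.4 and 15.6 in experienced cells (-1.11 ± 0.11), *Ctsw* was close in both (-0.29 ± 0.11), and *S100a10* was at 10.8, 10.4, 8.99 and 10.7 in naive against 14.2, 31.2, 19.5 and 39.1 in experienced cells. The mesenchymal filament *Vim* (-1.47 ± 0.12), the annexin *Anxa2* (-3.85 ± 0.17), the galectin *Lgals3* (-5.56 ± 0.17) and the chemokine receptor *Ccr2* (-4.39 ± 0.24) were lower. *Ccr2* is also a gene of the monocyte list, whose sums in experienced cells follow below.

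**Figure D3:**
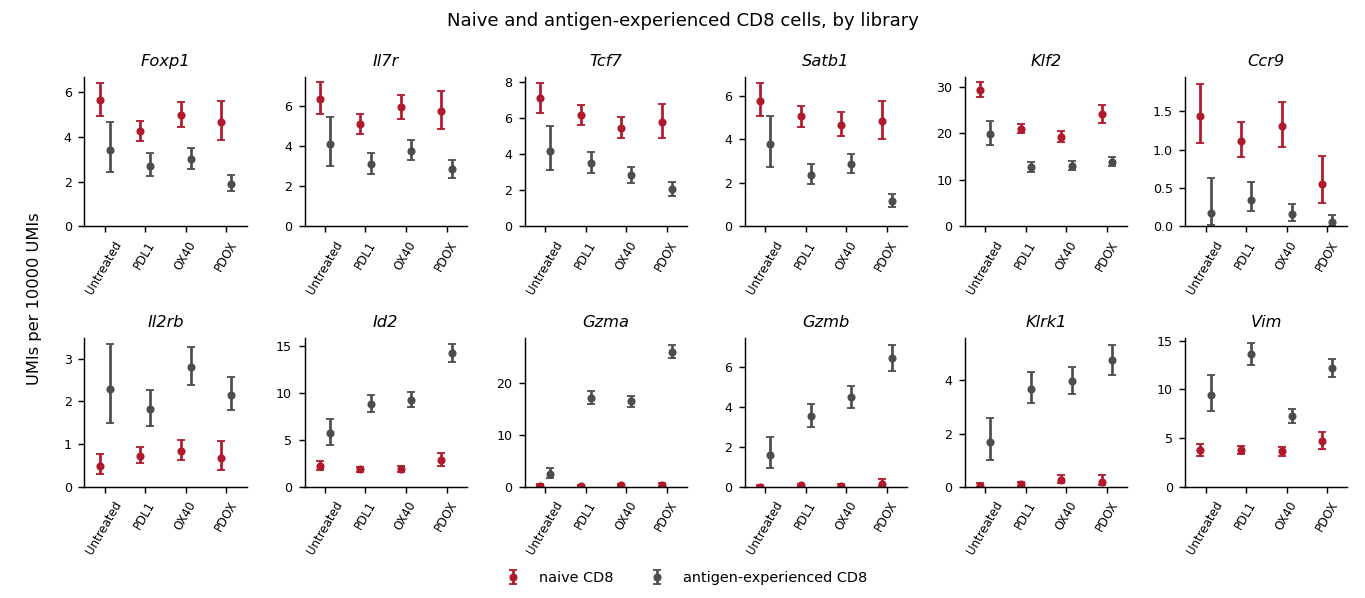
Levels of 12 genes in naive and antigen-experienced CD8 cells of each library, in UMIs per 10000 UMIs; each panel has its own axis from 0, and bars are exact 95% Poisson intervals. The top row holds genes higher in naive cells, such as *Tcf7* and *Ccr9*, and the bottom row genes lower in naive cells, such as *Gzma* (0.187 to 0.354 against 2.46 to 26.2).

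Monocyte genes moved with this comparison in 2 libraries. *Lyz2*, a defining monocyte gene, was at 37.3, 26.4, 0.208 and 0.416 in experienced cells and at 2.67, 1.60, 0.129 and 0.944 in naive ones, and the 14 monocyte genes summed to 105, 94.5, 25.9 and 28.7 in experienced cells. Without cells that held UMIs of 7 genes of other lineages, which left out 287 naive and 146 experienced cells, 620 genes passed the threshold, 280 higher and 340 lower. Against all 3566 other T cells, 1046 of 7151 genes passed it (14.6%), 451 higher (6.31%) and 595 lower (8.32%) in naive CD8 cells. Without the PDL1 library, the comparison with experienced cells gave 532 genes and that with other T cells 660.

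Whether the naive CD8 cells themselves differed between libraries was examined as the ratio of levels to the Untreated library, in genes with at least 30 UMIs in the 2 libraries. There is no test, and all 3 ratios share the Untreated library. In PDL1, 385 of 5259 genes had a ratio of at least 1.5 (7.32%) and 426 of at most 1/1.5 (8.1%), and with TMM factors in place of totals 418 and 396. In OX40, these were 320 (6.92%) and 432 (9.34%) of 4626 genes, and with TMM factors 405 and 329, so which direction held more genes depends on the scaling in both libraries. In PDOX, they were 260 (7.58%) and 338 (9.85%) of 3430 genes. The counting interval also left out 1 for 111 (2.11%), 131 (2.83%) and 93 (2.71%) of those above and for 161 (3.06%), 191 (4.13%) and 113 (3.29%) of those below.

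Interferon-stimulated genes were higher in the naive CD8 cells of the PDL1 library. These genes are switched on by interferons through factors that bind promoter elements known as ISRE and GAS. Promoter sequence is shown for the 5 list genes with the highest PDL1 ratios among those matched in the RefSeq promoter table (build GRCm38.p6, mm10), each as the 160 bases before the transcription start, 5′ to 3′ on the gene's strand. Capitals mark the letters GAAANNGAA (read as TTCNNTTTC on the other strand), a core of the ISRE type, and TTCNNNGAA, a core of the GAS type.
Isg15, chr4:156200819-156200978, minus strand: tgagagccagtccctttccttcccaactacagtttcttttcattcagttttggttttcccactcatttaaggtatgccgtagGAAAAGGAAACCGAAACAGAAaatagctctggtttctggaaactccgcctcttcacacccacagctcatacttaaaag
Ifit3, chr19:34583369-34583528, plus strand: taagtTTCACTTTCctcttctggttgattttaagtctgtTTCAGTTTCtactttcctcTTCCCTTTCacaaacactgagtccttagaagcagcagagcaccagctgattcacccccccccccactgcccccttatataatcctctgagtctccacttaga
Igtp, chr11:58199396-58199555, plus strand: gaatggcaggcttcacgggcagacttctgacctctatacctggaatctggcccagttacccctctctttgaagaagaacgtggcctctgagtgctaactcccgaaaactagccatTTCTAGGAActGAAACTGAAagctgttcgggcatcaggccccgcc
Ifit1, chr19:34640729-34640888, plus strand: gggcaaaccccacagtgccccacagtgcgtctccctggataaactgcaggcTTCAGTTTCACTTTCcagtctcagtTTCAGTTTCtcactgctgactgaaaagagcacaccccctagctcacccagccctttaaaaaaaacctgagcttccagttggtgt
Oasl2, chr5:114896774-114896933, plus strand: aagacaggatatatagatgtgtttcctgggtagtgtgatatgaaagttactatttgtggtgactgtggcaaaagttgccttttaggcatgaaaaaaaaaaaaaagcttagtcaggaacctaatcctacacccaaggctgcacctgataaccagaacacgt

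*Isg15* held 3 ISRE-type cores within 78 bases of the start, *Ifit3* and *Ifit1* 3 each, *Igtp* 1 beside a GAS-type core, and *Oasl2* neither in this window. Neighboring ISRE-type matches in *Isg15* and *Ifit1* overlap. Over the 300 bases of the table (250 before to 50 after the start), 14 of the 22 list genes that were compared and matched held an ISRE-type core in at least 1 of their promoters (63.6%), against 9.76% of 27025 genes counted the same way and 8.56% of all 32851 promoters. Of the 12 matched genes whose PDL1 interval lay above 1 it was 8 (66.7%), and of the other 10 it was 6 (60%). A GAS-type core was found in 6 of 22 (27.3%), against 9.55% of genes and 8.30% of promoters. These are matches of letters, which describe the promoters and are no evidence of binding.

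*Isg15*, a ubiquitin-like protein, was at 0.569, 1.93, 0.273 and 1.10 in naive CD8 cells, a PDL1 ratio of 3.39 (2.19 to 5.50) and an OX40 ratio of 0.481 (0.241 to 0.940). *Igtp*, an immunity-related GTPase, was at 0.667, 2.13, 1.06 and 1.34, with ratios of 3.19 (2.12 to 4.97) in PDL1 and 2.004 (1.17 to 3.45) in PDOX. *Ifi27l2a*, the most counted gene of the list, was at 11.2, 22.3, 7.92 and 8.65, with 1.998 (1.80 to 2.22) in PDL1, 0.709 (0.623 to 0.808) in OX40 and 0.775 (0.656 to 0.912) in PDOX. PDL1 was the highest library for each of these 3, while PDOX was above the Untreated library for *Isg15* and *Igtp* and below it for *Ifi27l2a*.

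Over the list, 28 of 29 genes compared had a PDL1 ratio above 1 and 15 a ratio of at least 1.5 (median 1.58, against 0.981 over all genes compared). In OX40, 7 of 23 lay above 1 (median 0.8004, all genes 0.954), and in PDOX 13 of 22 (median 1.07, all genes 1.01). The list summed to 61.6, 90.3, 53.8 and 64.6 UMIs per 10000. Among cells thinned to 750 UMIs, the median cell held 4, 6, 4 and 4 UMIs of the list and the 90th percentile lay at 8, 12, 7 and 8.7, so the median cell was higher in PDL1 too. Naive-gated CD4 cells of the same libraries had sums of 66.9, 100, 64.8 and 82.3. In experienced CD8 cells the sums were 48.41, 81.45, 49.22 and 61.79, and in B cells 60.1, 75.39, 42.38 and 58.86. The rise in PDL1 was therefore not particular to naive CD8 cells. Under the stricter rule, 16 of 22 genes were above 1 in PDL1, with a median of 1.29.

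**Figure D4:**
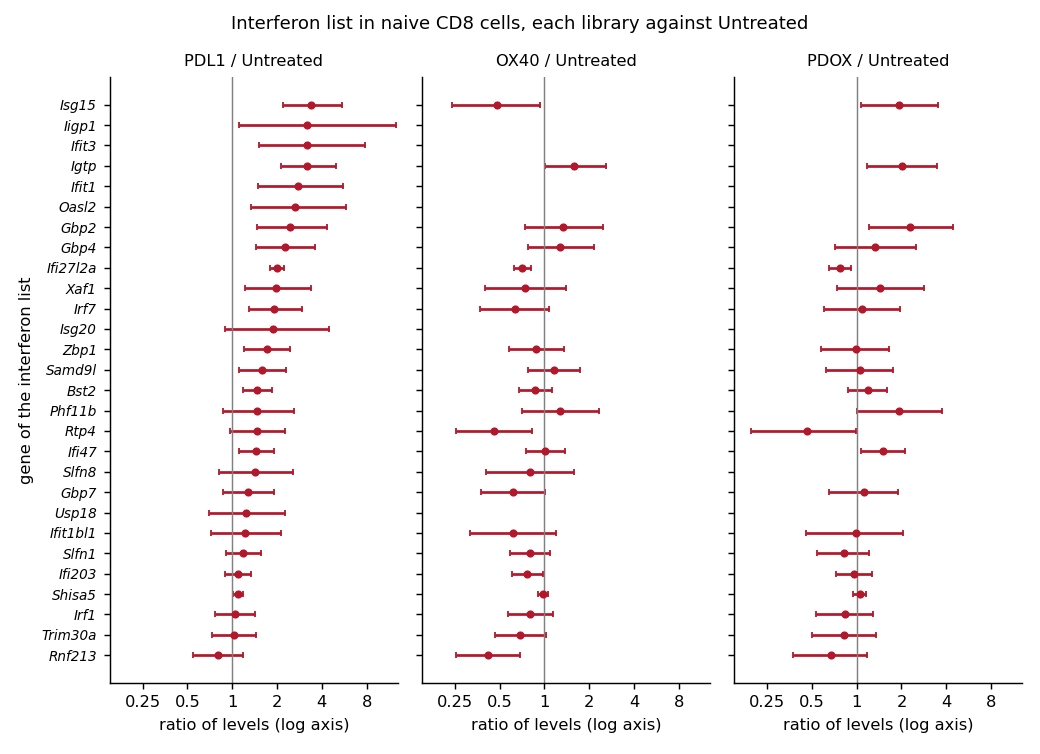
Ratio of the level in naive CD8 cells of the PDL1, OX40 and PDOX libraries to the Untreated library for genes of the interferon list with at least 30 UMIs in the 2 libraries, on a log axis. Points are ratios, bars exact 95% intervals that cover counting error only, the line is a ratio of 1, and in PDL1 all drawn points but that of *Rnf213* lie to its right.

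Antigen presentation genes were higher in PDL1 and PDOX. The 15 genes of MHC class I presentation summed to 162, 199, 168 and 195, ratios of 1.23 (1.20 to 1.27), 1.04 (1.01 to 1.08) and 1.21 (1.17 to 1.26), and 14, 12 and 14 of the 15 had a ratio above 1. The immunoproteasome subunit *Psmb9* had the highest PDL1 ratio, 1.68 (1.35 to 2.12), and was at 1.62 (1.22 to 2.16) in PDOX. *B2m*, the light chain of class I molecules, was at 66.9, 81.9, 68.4 and 76.9. The rise was not particular to naive CD8 cells. The same 15 genes summed to 166.7, 202.5, 179.1 and 210.3 in naive-gated CD4 cells and to 158.8, 192.8, 173.6 and 205.1 in experienced CD8 cells. In B cells the sums were 121.7, 143.2, 148.7 and 179.1.

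Immediate early genes were lower in all treated libraries. The 22 genes summed to 113, 94.9, 85.0 and 84.2, ratios of 0.842 (0.812 to 0.873), 0.754 (0.725 to 0.785) and 0.747 (0.709 to 0.787). *Nr4a1*, a receptor that reports recent antigen receptor signals, was at 1.01, 0.608, 0.193 and 0.118, an OX40 ratio of 0.190 (0.0911 to 0.369) and a PDOX ratio of 0.116 (0.0231 to 0.365). The kinase *Sik1* was at 0.766, 0.269, 0.193 and 0.118. *Junb* was at 23.8, 21.1, 19.1 and 15.3, and *Jund* at 15.7, 12.8, 8.54 and 11.9. The same list summed to 120, 95.8, 93.2 and 85.8 in naive-gated CD4 cells and to 88.48, 64.9, 58.82 and 48.81 in experienced CD8 cells. In B cells it summed to 113.8, 102.8, 54.59 and 83.71.

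Genes of quiescence and of the naive program were also lower than in the Untreated library. The 12 quiescence genes summed to 98.6, 73.2, 82.7 and 78.2. *Klf2*, which keeps T cells quiescent and in circulation, was at 29.4, 21.1, 19.3 and 24.1, and the antiproliferative *Btg1* at 42.2, 29.5, 37.2 and 31.3. The naive list summed to 78.0, 63.7, 64.4 and 67.5, of which *Klf2* is the largest part. *Tcf7* was at 7.09, 6.16, 5.47 and 5.78. *Slfn2*, a quiescence gene that is itself induced by interferon, was the reverse, at 2.94, 4.32, 3.83 and 4.84. The list sums were lower in other cells of the treated libraries too. In naive-gated CD4 cells the quiescence genes summed to 100.6, 74.83, 87.53 and 81.57 and the naive list to 78.34, 64.62, 72.9 and 71.16. In experienced CD8 cells these sums were 66.21, 48.93, 62.35 and 49.75, and 52.97, 38.55, 41.05 and 32.37.

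Single genes moved further. *Ly6a*, an interferon-inducible marker, was at 0.643, 3.13, 1.69 and 3.27, ratios of 4.88 (3.26 to 7.60), 2.63 (1.70 to 4.21) and 5.08 (3.24 to 8.22). It was at 1.87, 9.39, 5.52 and 8.25 in naive-gated CD4 cells and at 3.33, 7.36, 2.16 and 10.5 in B cells, so B cells held it too. *Ctla2a*, a cathepsin inhibitor of activated T cells, was at 0.0989 (4 UMIs), 0.620, 0.981 and 1.53, ratios of 6.27 (2.31 to 23.9), 9.92 (3.68 to 37.6) and 15.5 (5.60 to 59.8), beside 3.86, 4.53, 7.33 and 9.43 in experienced CD8 cells. *Ccr9* was lower in PDOX, with a ratio of 0.384 (0.198 to 0.697).

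Some genes had their extreme in the same library in naive CD8, naive-gated CD4 and experienced CD8 cells. *Gsto1*, a glutathione transferase, was at 0.717, 4.09, 0.354 and 0.787 in naive CD8 cells, at 0.813, 23.3, 0.0449 and 0.338 in naive-gated CD4 cells and at 1.84, 74.4, 0.485 and 44.3 in experienced CD8 cells. Its PDL1 ratio of 5.71 (3.91 to 8.65) was 2.1 under the stricter rule. *Ifitm1*, an interferon-induced membrane protein, had 52 UMIs in PDL1 and none in Untreated naive CD8 cells, at least 8.20-fold higher at a floor of 3 UMIs, and was at 12.3 in experienced CD8 cells of PDL1. The predicted gene *Gm10076* was at 6.48, 8.96, 50.2 and 1.81 in naive CD8 cells at 5.04, 6.77, 39.9 and 1.55 in naive-gated CD4 cells and at 6.75, 6.43, 37.5 and 1.27 in experienced CD8 cells. *Mfsd11*, a transporter family gene, was at 0.371, 0.304, 2.86 and 0.0393, and *Polr2l*, a subunit shared by RNA polymerases, at 0.445, 0.725, 1.98 and 0.315. Predicted genes, MHC class I genes and *Klrc1* with *Klrc2* can share reads with near-identical copies, so their single values are uncertain.

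*Lyz2* had the lowest ratio of any gene named, at 2.67, 1.60, 0.129 and 0.944, and the OX40 library (ratio 0.0482, 0.0203 to 0.0984) was also the one with the least in naive-gated CD4 (0.180) and experienced CD8 cells (0.208). Its part in the other ratios was not tested.

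Lastly, the naive CD8 cells were compared with each other inside each library. For each gene, the variance of the Pearson residuals of its UMIs was taken against a Poisson model of the cell's total, under which it is near 1, and genes were ranked by the median over libraries. Of 2233 genes with at least 30 UMIs in at least 3 libraries, 23 had a median variance over 2 and 50 over 1.5, and the median gene stood at 1.01. Many of these genes are sparse, and at sparse counts this variance lies near 1 whatever the spread, so the values are read for the top genes only.

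The genes at the top were of 3 kinds. *Cd74* led with 24.2, with UMIs in 181 of 1269 cells and up to 80 in 1 cell, and it is a B-cell gene (205 to 335 in B cells); in PDOX it was under the count minimum. The rule's *Ccl5* followed (24.0, up to 71 UMIs in 1 cell) and *Dapl1* stood at 3.19. Genes counted in nearly every cell were another kind, with *Actb* at 21.5, *Malat1* at 13.7, *Rplp1* at 3.02 and *Tmsb4x* at 2.64. The third kind were T-cell genes of moderate level: *Ly6c2* at 3.61, with UMIs in 467 cells (36.8%), *Nfkbia* at 2.997, *Ifi27l2a* at 2.81, *Crip1* at 2.58, the kinase *Pim1* at 2.40, *Junb* at 2.24 and *Klf2* at 2.20. *Ly6c2* was at 3.86, 4.52, 3.28 and 3.36 in the 4 libraries, so the mix of *Ly6c2*-positive and negative naive cells was present in each. Thinned to 750 UMIs, 27.9%, 27.6%, 29.1% and 33.3% of naive CD8 cells held a *Ly6c2* UMI, against 5.30% of B cells. The predicted gene *Gm12840* (3.66) and *Xist* (2.50) complete the part of the list that is not ribosomal or translational.

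**Figure D5:**
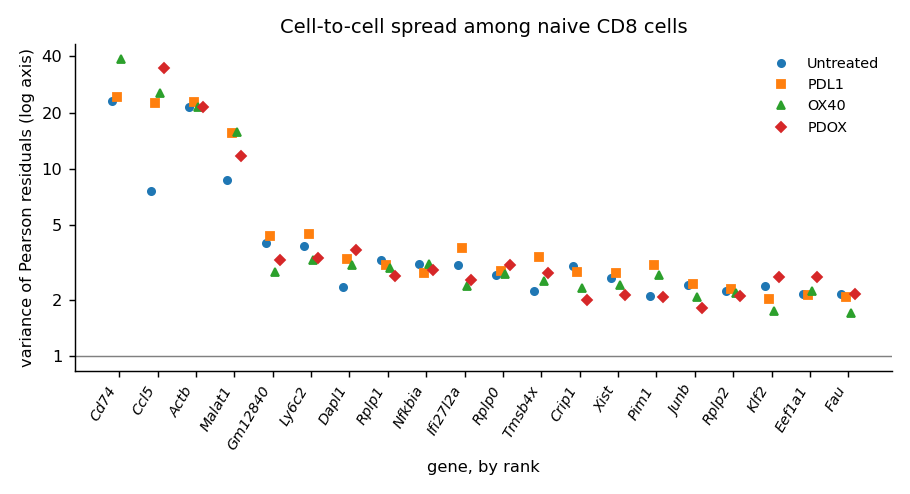
Variance of Pearson residuals among naive CD8 cells for the 20 top genes by median over libraries, on a log axis, with 1 point per library. The line at 1 is the Poisson expectation, and *Cd74* (24.2), *Ccl5* (24.0), *Actb* (21.5) and *Malat1* (13.7) lie far above the rest.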

How the data were processed

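The deposited files hold raw UMI counts per gene and cell for 4 libraries of 862 to 1583 cells (2392650 to 4969885 UMIs), which the authors made with Cell Ranger; the submitters' processing notes name mm10 and Seurat, and the gene annotation is not given in the sources used here. Libraries were grouped by their labels, and no deposited per-sample column was left out. Mitochondrial, hemoglobin and most ribosomal protein genes were left out of totals. Ribosomal protein genes without a digit right after Rps or Rpl in their symbol, such as *Rplp1*, stayed in. The members, lists and comparisons were chosen with earlier results of these data known. Counts were summed per library and cell group and fitted with edgeR 4.0.16 (quasi-likelihood test, TMM, library block, Benjamini-Hochberg adjustment at 0.05); DESeq2 1.42.0 was an alternative. The pairing comes from the libraries: both cell groups of a library are the same blood sample. Ratios between libraries and shares carry exact 95% intervals, which cover counting error only. Where a side held no UMI, a floor of 3 UMIs was used. Scripts were tested on simulated data. Doublets were not removed; leaving out the highest Scrublet scores was an alternative. Genes named are the 12 with the largest fold in each direction among genes called, with 1 sign in every library and an average log2 CPM of at least 5, those among the 8 highest and 8 lowest ratios of each treated library whose interval leaves out 1, the 20 with the largest spread, and members of the lists and the rule. Python 3.11.15 and R 4.3.3 were used. Some members of the lists are counted in list values and are not reported here by name.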

Additional observations from a re-analysis of the deposited data

How the results depend on the processing

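Genes named for the largest folds (24 against CD4 cells, 24 against experienced cells) or for their ratios kept their direction in the alternatives that measured them. Other named genes were not followed one by one. The balance of higher and lower calls turned in some alternatives. It was 187 higher and 197 lower against CD4 cells without the highest doublet scores (198 and 184 as reported), 164 and 154 against experienced cells after thinning (361 and 538), and 116 and 111 against other T cells after thinning (451 and 595). Of genes called as reported, the opposite sign was seen against CD4 cells for 2 each with DESeq2, thinning and without PDL1, against experienced cells for 12 after thinning and 10 without other-lineage cells, and against other T cells for 21 after thinning, 8 without other-lineage cells and 5 under the stricter rule. Against naive-gated CD4 cells (382 genes called), DESeq2 gave 83 calls, thinning every cell to 750 UMIs 137 and the stricter rule 170, and leaving out 1 library 277 to 345. DESeq2 moved the share of higher calls from 51.83% to 67.47%, and no filter on low counts to 62.94%. Against antigen-experienced CD8 cells (899), DESeq2 gave 261, thinning 318 (51.57% higher, against 40.16%) and the stricter rule 574, and leaving out 1 library 532 (without PDL1) to 873. Against all other T cells (1046), DESeq2 gave 392, no filter 1578 (28.33% higher, against 43.12%), thinning 227, the stricter rule 486, and leaving out cells with UMIs of other lineages 517, and leaving out 1 library 660 (without PDL1) to 1012. Both cell groups of a library are paired by the blood sample, and without this replicate block the counts of calls were 173, 616 and 459. Thinning and the stricter rule tested fewer genes or cells; the cause of the other changes was not tested. Under the stricter rule, the naive shares of CD8 T cells were 36.73%, 32.16%, 21.4% and 14.47%. Between libraries, 811 (PDL1), 752 (OX40) and 598 (PDOX) genes lay past a 1.5-fold ratio. These were 99, 118 and 75 with at least 100 UMIs, 403, 402 and 258 after thinning, and 454, 423 and 304 under the stricter rule. As a share of the genes compared, 15.42%, 16.26% and 17.43% became 4.84%, 7.15% and 7.19% with at least 100 UMIs and 17.23%, 20.18% and 20.62% after thinning. The balance in PDL1 (385 above and 426 below) turned with TMM factors (418 and 396), at least 100 UMIs (59 and 40) and thinning (217 and 186), and in OX40 (320 and 432) with TMM factors (405 and 329) and at least 100 UMIs (68 and 50). Of the 24 genes named for the largest folds against CD4 cells, *Cxcr6* (adjusted p = 0.146) and *Stmn1* (adjusted p = 0.0566) were no longer called by DESeq2. Other genes named from the lists were not followed here. Among ratios, *Gsto1* in PDL1 was 2.1 under the stricter rule and *Ly6a* in PDL1 3.19 after thinning. With 1 library per group, depth gives counting error only.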
